A study of Homo sapiens with 12 samples.

Results

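Transcript levels of 9 genes that mark kidney lineage and proximal tubule identity, PAX8, PAX2, LHX1, CDH6, CDH16, LRP2, CUBN, ANPEP and MME, were followed through 12 RNA-seq libraries of the human kidney cancer line A498. The genes were chosen by name from the 57773 genes of the deposited table, with earlier results of these data known. A498 cells had been transfected with an siRNA against ELOVL2 (siELOVL2), an siRNA against ELOVL5 (siELOVL5), both siRNAs (double knockdown) or a control siRNA, and each of these 4 groups had 3 biological replicates. ELOVL2 and ELOVL5 are elongases of polyunsaturated fatty acids, and siRNAs are small double-stranded RNAs that direct the destruction of a matching transcript. Per the labels' protocols, cells were harvested after transfection, with no siRNA sequence, dose or time stated there. All groups share the cell line and the transfection, and no untransfected or normal kidney cells were measured.

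The proximal tubule is the nephron segment that recovers most of the filtered solutes and proteins. Its cells arise from embryonic progenitors that need the paired-box factors PAX2 and PAX8 and the LIM-homeobox factor LHX1. Mature cells take up filtered protein through the giant receptors megalin (LRP2) and cubilin (CUBN), and carry the peptidases aminopeptidase N (ANPEP) and neprilysin (MME) on their brush border. CDH6, or K-cadherin, is a cadherin of the developing and proximal tubule that is also found in kidney carcinoma. CDH16 is a kidney-specific cadherin of tubular epithelium.

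The unit of the values below is the normalized count, a read count that the authors had put through quantile normalization. Normalized counts total 8.525 M in every library, while the depth before that step was estimated at 6.70 to 10.7 M reads. ELOVL2 was lower in siELOVL2 and double-knockdown cells (log2 fold change -3.38 and -3.43 against control), and ELOVL5 was lower in siELOVL5 and double-knockdown cells (-3.73 and -3.46). The library siELOVL5 replicate 3 stood apart from the rest on the second principal component of all genes (-70.2, against -15.1 to 26.0 for the other 11 libraries). These are bulk libraries, so fewer cells with a transcript and less of it per cell cannot be told apart.

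A gene is called here when its Benjamini-Hochberg adjusted p is under 0.05 in limma's moderated test on log2(normalized count + 1), adjusted over the 18648 genes that reached 1 normalized count in 3 or more libraries. Of the 9 genes, 8 passed that filter and LRP2 did not. None of the 8 was called in any of the 7 comparisons of the main limma fit, which left out replicate numbers and library weights. At an unadjusted p under 0.05 there was 1 gene in siELOVL2 against control, 0 in siELOVL5 against control and 2 in the double knockdown against control. At that unadjusted threshold stood 13.7% of all tested genes for siELOVL2, 9.56% for siELOVL5 and 18.8% for the double knockdown, and the unadjusted counts of the 8 genes, and of the gene lists further on, are to be read against these shares. Over all tested genes, 1.36% were called for siELOVL2, 0.139% for siELOVL5 and 4.42% for the double knockdown against control, so a count of 0 among 8 lies near these shares. In simulated data for siELOVL2 against control, the fit called 96% of genes raised 2-fold, 88% of genes lowered to 0.5-fold and 24% of genes raised 1.5-fold. Smaller differences may thus lie below what 3 libraries a group can show. The simulation gave all genes 1 small spread beyond counting noise, without a replicate-number effect, and changed no scarce genes. It does not show what could be called for CDH6, CDH16 and MME (SE 0.80, 0.76 and 0.52), or for the scarce CUBN. The median log2 fold change of the 8 genes was 0.10 for siELOVL2, -0.07 for siELOVL5 and -0.06 for the double knockdown, beside 0.02, -0.00 and 0.02 over all tested genes.

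**Figure D1:**
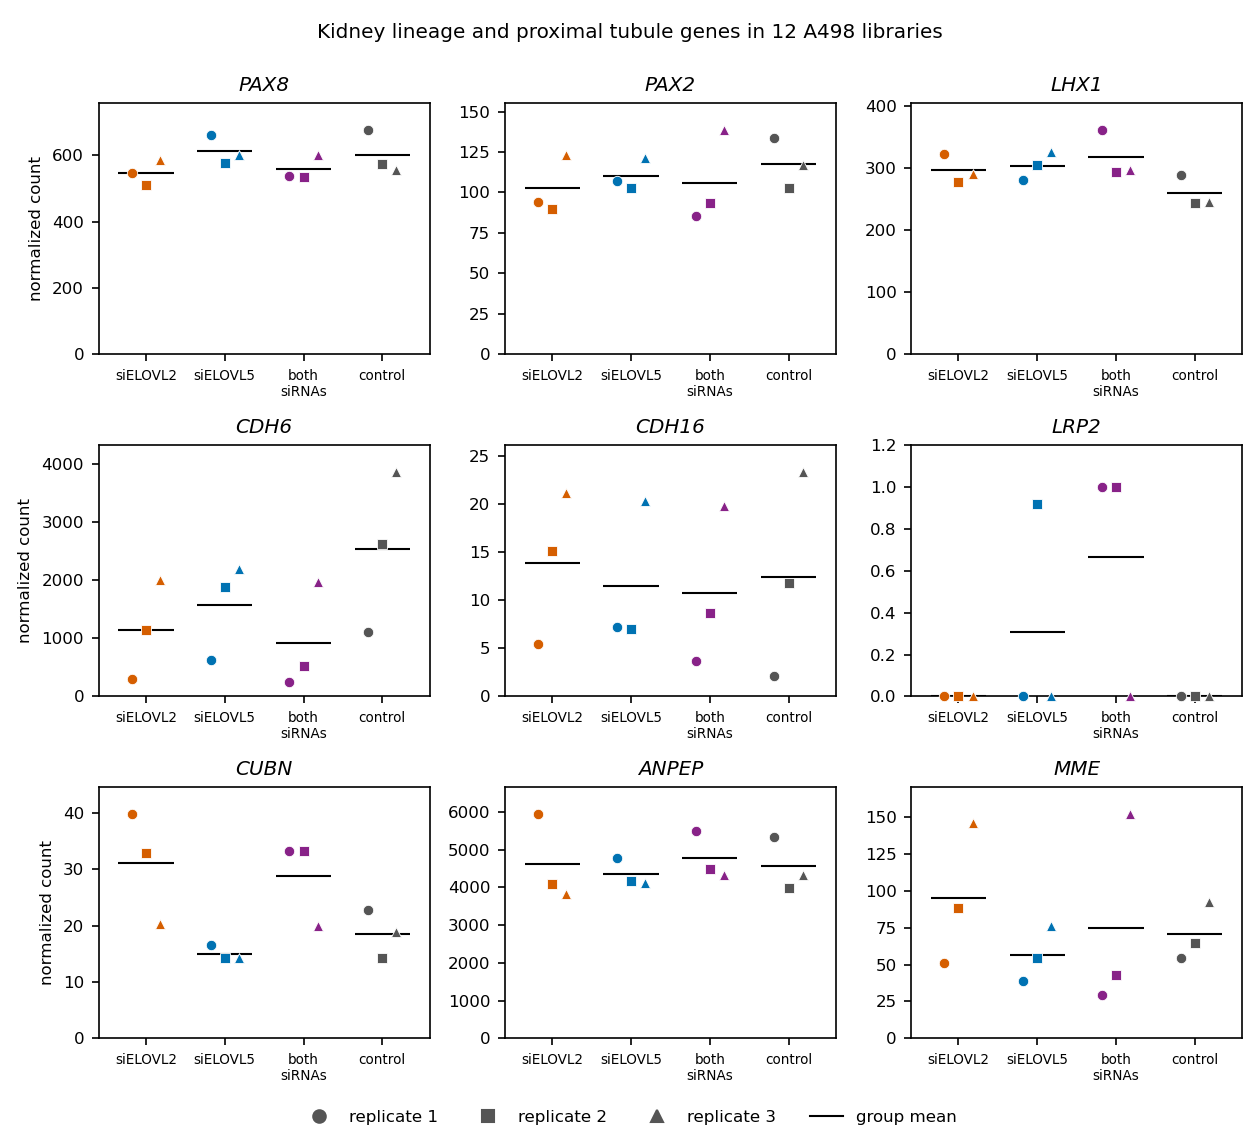
Normalized count of each of the 9 genes (vertical axis, linear from 0, its own scale per panel) in siELOVL2, siELOVL5, double-knockdown (both siRNAs) and control libraries; circles, squares and triangles are replicates 1, 2 and 3 and lines are group means. PAX8, LHX1 and ANPEP stayed within narrow ranges, CDH6, CDH16 and MME spread widely within every group, and LRP2 never exceeded 1.

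The lineage factors were present in every library at moderate levels and with little spread. PAX8, which is used in pathology to mark tumours of kidney origin, had 548, 511 and 586 normalized counts in the siELOVL2 libraries. It had 662, 577 and 600.5 in siELOVL5, 537, 536 and 601 in double-knockdown and 676, 575 and 557 in control libraries. All 4 groups overlapped. The log2 fold change against control was -0.13 for siELOVL2 (95% interval -0.34 to 0.07, limma adjusted p = 0.587), 0.03 for siELOVL5 (-0.18 to 0.23, adjusted p = 0.953) and -0.11 for the double knockdown (-0.31 to 0.10, adjusted p = 0.609). These are the narrowest intervals among the 8 genes, and they leave room for differences of up to about 0.34 on the log2 scale.

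PAX2, which acts with PAX8 from the earliest nephric cells on, had lower counts than PAX8. Its normalized counts were 94.4, 89.9 and 123 in siELOVL2, 107, 103 and 121 in siELOVL5, 85.5, 93.4 and 139 in double-knockdown and 134, 102 and 117 in control libraries. The double-knockdown libraries held both the lowest and the highest value of the 12, so the groups overlapped. The 3 log2 fold changes against control lay between -0.20 and -0.09, each with an SE of 0.19, and the smallest of their limma adjusted p values was 0.687.

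LHX1, a regulator of the nephric duct and of early nephrons, had 323, 278 and 291 normalized counts in siELOVL2, 281, 306 and 327 in siELOVL5, 362, 295 and 298 in double-knockdown and 289.5, 244 and 245 in control libraries. Every double-knockdown library lay above every control library, with control replicate 1 only just below the double-knockdown range. Groups that do not overlap were found for 24.8% of all tested genes in this comparison, and LHX1 was the only one of the 8 genes with that pattern against control. Its log2 fold change was 0.29 (95% interval 0.05 to 0.53, limma adjusted p = 0.175) for the double knockdown, 0.23 (-0.01 to 0.47, adjusted p = 0.536) for siELOVL5 and 0.20 (-0.05 to 0.44, adjusted p = 0.482) for siELOVL2. The share of tested genes with groups that do not overlap was 22.4% for siELOVL2 and 13.1% for siELOVL5 against control, and none of the 8 genes had that pattern there.

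CDH6 had the largest differences from control among the 8 genes, and also one of the widest spreads within groups. Its normalized counts were 299, 1148 and 1996 in siELOVL2 libraries, 624, 1883 and 2189.8 in siELOVL5 libraries and 247, 526 and 1973 in double-knockdown libraries, against 1105, 2621 and 3863 in control libraries. The means were 1148 ± 848, 1566 ± 829 and 916 ± 927 in siELOVL2, siELOVL5 and double-knockdown cells, against 2529 ± 1381 in control cells (SD, n = 3 each). In every group replicate 1 was the lowest library and replicate 3 the highest, and each siRNA group overlapped the control group because control replicate 1 was low. Among libraries of the same replicate number, the control library was the highest in each of the 3 sets.

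The log2 fold change of CDH6 against control was -1.81 for the double knockdown (SE 0.80, 95% interval -3.54 to -0.08), -1.34 for siELOVL2 (SE 0.80, -3.07 to 0.39) and -0.71 for siELOVL5 (SE 0.80, -2.44 to 1.02). The limma adjusted p values were 0.242, 0.505 and 0.822, so the difference did not pass the test in this fit. Leaving out any single library kept the double-knockdown value below 0 and uncalled, between -2.63 and -1.13. The highest replicate exceeded the lowest by a factor of 3.50 in control and 8.0 in double-knockdown cells. This spread followed the replicate number, which this fit does not take into account. With libraries weighted by their quality in limma, the double-knockdown value was -2.18 and passed the test (adjusted p = 0.0418). With the replicate number as a block in limma, the double knockdown (-1.81, SE 0.25, adjusted p = 0.00110) passed the test. So did siELOVL2 (-1.34, SE 0.25, adjusted p = 0.0114), while siELOVL5 did not.

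CDH16 was near the lower end of what these libraries could measure. Its normalized counts were 5.42, 15.2 and 21.2 in siELOVL2, 7.25, 7 and 20.3 in siELOVL5, 3.67, 8.67 and 19.8 in double-knockdown and 2.08, 11.8 and 23.3 in control libraries. These rest on 153 reads in all, from 2 reads in control replicate 1 to 25 in control replicate 3. The groups overlapped almost fully. The log2 fold changes against control were 0.42, 0.19 and -0.01 for siELOVL2, siELOVL5 and the double knockdown, each with an SE of 0.76, and the smallest limma adjusted p was 0.862.

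**Figure D2:**
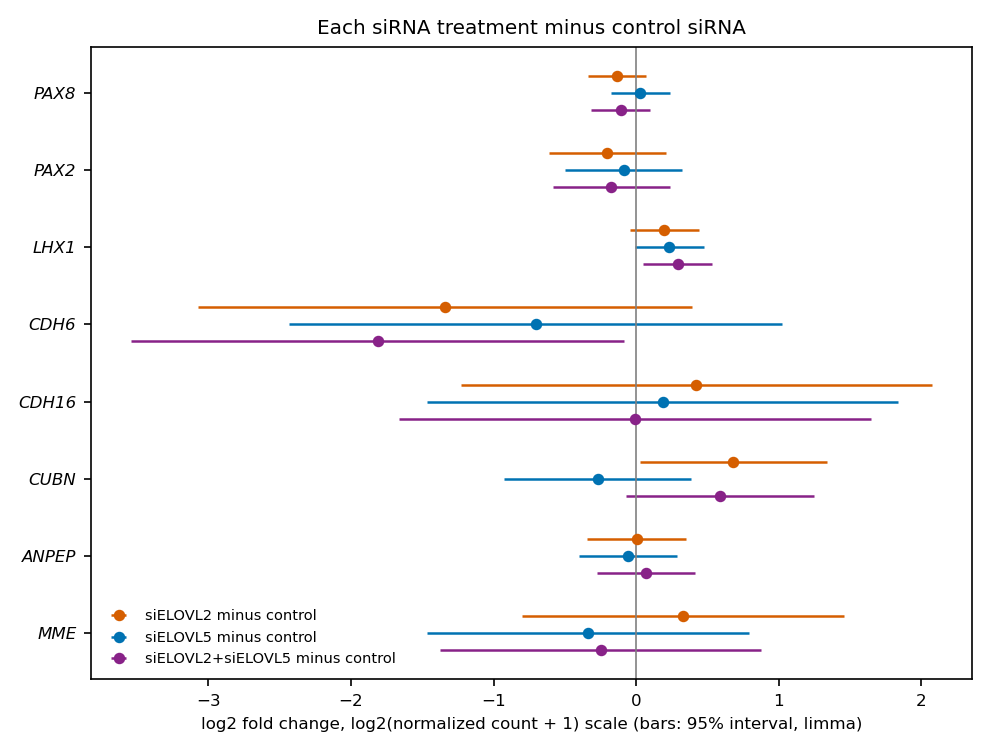
Log2 fold change against control cells (horizontal axis, log2 of normalized count + 1) for the 8 genes that passed the filter, with 95% intervals from limma; orange, blue and purple are siELOVL2, siELOVL5 and both siRNAs. Intervals were narrow for PAX8, LHX1 and ANPEP and wide for CDH6, CDH16 and MME. No gene had an adjusted p under 0.05 in this main fit, which left out replicate numbers and library weights.

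The endocytic receptors were near or at the limit of detection. LRP2, megalin, was listed at 0 in all siELOVL2 and control libraries. It stood at 0.917 in siELOVL5 replicate 2 and at 1 in double-knockdown replicates 1 and 2, and was listed at 0 in the other 3 libraries. This comes to 3 reads in 3 libraries. The 9 libraries with 0 reads allow a level of up to 0.317 to 0.446 reads per 1 M, the limit that 3 counts set at each depth, which covers counting error only.

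CUBN, cubilin, which binds filtered proteins and depends on amnionless (AMN) to reach the membrane, was low but present in every library. Its normalized counts were 39.8, 32.9 and 20.3 in siELOVL2, 16.5, 14.3 and 14.2 in siELOVL5, 33.2, 33.2 and 19.8 in double-knockdown and 22.8, 14.2 and 18.8 in control libraries. The reads recovered behind them were 45, 35 and 22 in siELOVL2, 18, 18 and 14 in siELOVL5, 26, 30 and 21 in double-knockdown and 18, 14 and 20 in control libraries. Replicates 1 and 2 of siELOVL2 and of the double knockdown were the 4 highest libraries, while replicate 3 of both groups lay within the control range.

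Per 1 M estimated reads, CUBN averaged 3.68 ± 1.17 in siELOVL2, 1.81 ± 0.13 in siELOVL5 and 3.38 ± 0.86 in double-knockdown cells, against 2.21 ± 0.49 in control cells (SD, n = 3 each). Against control, its log2 fold change was 0.68 for siELOVL2 (SE 0.30, 95% interval 0.02 to 1.34, limma adjusted p = 0.346), 0.59 for the double knockdown (SE 0.30, -0.07 to 1.25, adjusted p = 0.326) and -0.27 for siELOVL5 (SE 0.30, -0.93 to 0.39, adjusted p = 0.820). The siELOVL5 group stood further from both groups that had received siELOVL2. Every siELOVL5 library lay below every siELOVL2 library (log2 fold change -0.95, SE 0.30, limma adjusted p = 0.119), and every double-knockdown library lay above every siELOVL5 library (0.86, SE 0.30, adjusted p = 0.158).

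Neither of these CUBN differences passed the test, except that siELOVL5 against siELOVL2 did so with library weights (-0.99, limma adjusted p = 0.0328). In the comparison of siELOVL5 with siELOVL2, 3.01% of all tested genes were called and 20% had groups that do not overlap. In the comparison of the double knockdown with siELOVL5, 2.77% were called and 18.8% had groups that do not overlap. CUBN was the only one of the 8 genes without overlap in either. The double knockdown against siELOVL2 called 0.059% of tested genes and the interaction of the 2 siRNAs called 0%, with 522 genes (2.8%) at an unadjusted p under 0.05 in the limma test of the interaction. The smallest limma adjusted p for the interaction among the 8 genes was 0.996.

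ANPEP, which trims amino acids from peptides at the brush border, was abundant in every library. Its normalized counts were 5947, 4105 and 3819 in siELOVL2, 4788, 4172 and 4124 in siELOVL5, 5498, 4481 and 4334 in double-knockdown and 5348, 3988 and 4341 in control libraries. Replicate 1 was the highest library of each group, and all groups overlapped. The log2 fold changes against control were 0.00 (95% interval -0.34 to 0.35), -0.06 (-0.40 to 0.29) and 0.07 (-0.28 to 0.41) for siELOVL2, siELOVL5 and the double knockdown, and the smallest limma adjusted p was 0.870.

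MME, which cleaves peptide hormones and is also known as CD10, had 50.8, 88 and 146 normalized counts in siELOVL2, 38.6, 54.3 and 76.2 in siELOVL5, 29.1, 43.2 and 152 in double-knockdown and 54.6, 64.7 and 92.6 in control libraries. The double-knockdown group spanned the whole range of the 12 libraries. The log2 fold changes against control were 0.33, -0.34 and -0.25 for siELOVL2, siELOVL5 and the double knockdown, each with an SE of 0.52, and the smallest limma adjusted p was 0.842. The antisense gene MME-AS1 was listed at 0 in all libraries and PAX8-AS1 had 0 to 7.67 normalized counts. No label says whether the authors counted by strand, so reads from a gene and its antisense partner cannot be told apart.

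Levels between genes were compared as control means per kb of merged exon, with lengths from GENCODE 29, which may differ from the authors' annotation. ANPEP stood first with 936 normalized counts per kb (819 to 1098 over the 3 control libraries), followed by CDH6 with 204 (89.3 to 312), PAX8 with 81.4 (75.2 to 91.4) and LHX1 with 53.2 (50 to 59.3). PAX2 followed with 18.8 (16.4 to 21.4), then MME with 7.34 (5.67 to 9.62), CDH16 with 3.39 (0.57 to 6.38), CUBN with 1.40 (1.07 to 1.71) and LRP2 listed at 0. Of these neighbours, CDH6 and PAX8 overlapped, with CDH6 the lower in control replicate 1, and so did MME and CDH16 as well as CDH16 and CUBN. A brush-border peptidase and the lineage factors thus stood above the endocytic receptors in every control library.

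The 9 genes divided by how they varied between libraries of a group. For CDH6, CDH16 and MME the library numbered 3 exceeded the library numbered 1 in all 4 groups. For CDH6 the ratio of replicate 3 to replicate 1 was 6.67 in siELOVL2, 3.51 in siELOVL5, 8.0 in double-knockdown and 3.50 in control cells. For CDH16 it was 3.91, 2.80, 5.41 and 11.2, and for MME it was 2.88, 1.98, 5.22 and 1.70, in the same order of groups.

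This ordering by replicate number was common in the table but rarely as steep. Replicate 3 exceeded replicate 1 in all 4 groups for 13.2% of tested genes and was below it in all 4 for 13.9%. Ranked by the mean log2 difference, CDH6 was number 7 of 18648 tested genes, CDH16 number 13 and MME number 123. ANPEP and CUBN went the other way, with replicate 3 at 0.64, 0.86, 0.79 and 0.81 times replicate 1 for ANPEP and 0.51, 0.86, 0.60 and 0.83 times for CUBN. PAX8, PAX2 and LHX1 took no single direction, and over all 16 tested regulators of kidney development 0 had replicate 3 above replicate 1 in every group and 1 had it below. What the replicate numbers stand for is not stated in the labels beyond biological replicate, and the labels give all libraries 1 batch name.

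**Figure D3:**
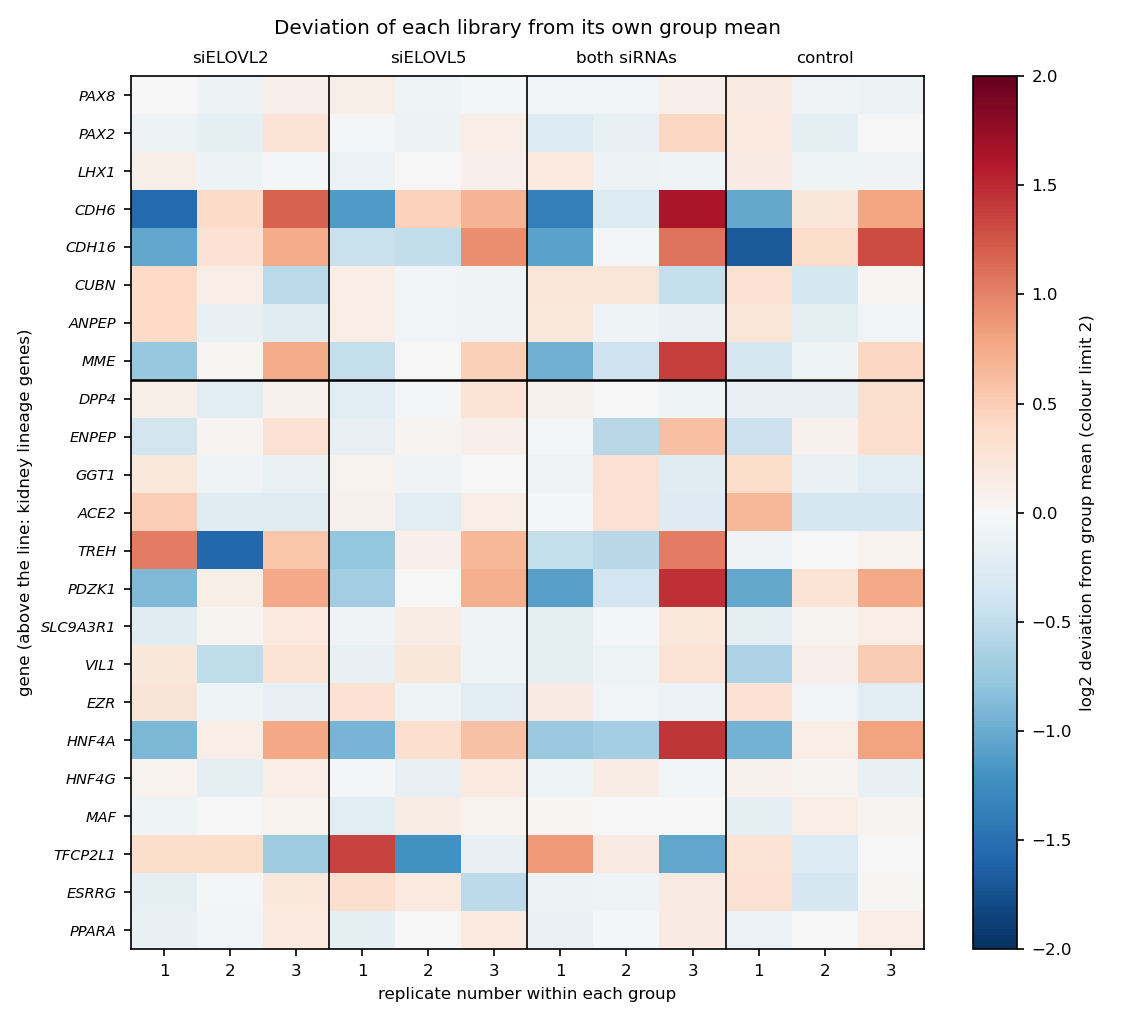
Colour gives the log2 deviation of each library (columns, replicates 1 to 3 within siELOVL2, siELOVL5, both siRNAs and control) from its own group mean, for the 8 tested genes above the line and for other tested brush-border genes and tubule transcription factors below it. CDH6, CDH16, MME, PDZK1 and HNF4A are blue in replicate 1 and red in replicate 3 of every group, while PAX8 and LHX1 stay pale.

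Other tubule genes showed the same ordering of libraries. PDZK1, a scaffold of brush-border transporters, had 50.2, 101 and 159 normalized counts in siELOVL2, 71.2, 116 and 190.2 in siELOVL5, 36.9, 60.3 and 221 in double-knockdown and 69.3, 170.2 and 239 in control libraries. HNF4A, a transcription factor needed for proximal tubule maturation, had 197, 404 and 632 in siELOVL2, 149, 357 and 428 in siELOVL5, 201, 209.8 and 907 in double-knockdown and 169, 361 and 573 in control libraries. They ranked number 31 and number 38 by the mean log2 difference between replicates 3 and 1. From the list of cadherins and catenins, CDH17, a cadherin of gut epithelium, ranked number 10. These 3 genes were picked for mention after their values were seen. Of 11 tested brush-border genes, 4 had replicate 3 above replicate 1 in all groups and 3 had it below, so the brush border did not vary as a block. Of the 10 renal carcinoma markers, 6 had it above and 1 below.

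Across the 12 libraries, log2 values of CDH6 ran with those of MME (Pearson r = 0.72) and CDH16 (r = 0.68), and CDH16 with MME (r = 0.78). CDH6 ran against ANPEP (r = -0.79) and CUBN (r = -0.75), while PAX8 ran with PAX2 (r = 0.71). These are descriptions over 12 libraries that share 4 treatments and the 3 replicate numbers, and they carry no test.

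Among the tested genes of at least median level (93.8 normalized counts), the pairs most like each of the 7 genes with at least 10 normalized counts in every library were found by the same correlation. They were ITIH5 (r = 0.99) and PREX2 (0.97) for CDH6, DPYSL2 (0.96) and NEK6 (0.95) for MME, RNLS (0.95) and DFNA5 (0.88) for PAX2, and CCNK (0.95) and GSTO1 (0.91) for ANPEP. For LHX1 they were C6orf1 (0.92) and BRI3 (0.90), for CUBN ARHGDIA (0.92) and GFM1 (0.92), and for PAX8 CABLES1 (0.86) and GCNT3 (0.84). Each pair is the top of 9322 or 9323 genes scanned.

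The other genes of the tubule programme were read from 13 lists of 164 genes, of which 159 were found under the same symbol. ACE, AQP1 and JAG1 appeared only with numbered suffixes and were not analysed here, nor were CD24 and PECAM1. Counts of called genes below stand against the shares of all tested genes given above, and each list's median against the all-gene medians. In siELOVL5 against control, limma called no gene of any list.

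The endocytic list (LRP2 and CUBN with adaptors, chaperones and endosomal channels) had 8 of 10 genes tested and 0 called under any siRNA, with 1, 0 and 2 at an unadjusted p under 0.05 for siELOVL2, siELOVL5 and the double knockdown. Its highest gene was OCRL, an endosomal lipid phosphatase, at a mean of 778 normalized counts over the 12 libraries. AMN was low, at 6 ± 1.83 in siELOVL2, 6.83 ± 2.37 in siELOVL5, 6.06 ± 3.49 in double-knockdown and 4.39 ± 2.71 in control cells (SD, n = 3 each), while the clathrin adaptor DAB2 had 800.1 ± 23.1, 746 ± 89.7, 825 ± 81.9 and 736 ± 52.8. The receptors and AMN were scarce in cells where DAB2 was abundant. AMN and DAB2 were picked for mention after their values were seen.

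The brush-border list, led by ANPEP, had 11 of 15 genes tested and 0 called, with 0, 1 and 2 at an unadjusted p under 0.05 in limma, in the same order. Its median log2 fold change was -0.09 for siELOVL2, -0.13 for siELOVL5 and -0.22 for the double knockdown. Proximal tubule transporters were mostly scarce: 12 of 19 stayed under 10 normalized counts in every library, 3 of these at 0, and the highest was the bicarbonate transporter SLC4A4 at a mean of 1411. Of 15 tested transporters limma called 0, with 2, 2 and 0 at an unadjusted p under 0.05, and their medians were -0.09, -0.14 and 0.02.

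Metabolic genes of the proximal tubule were scarcer still, with 11 of 16 under 10 normalized counts in every library and 3 of these at 0. The highest was UGT2B7, at a mean of 263, an enzyme that adds glucuronic acid to steroids and drugs, which fell in siELOVL2 and double-knockdown cells. It had 244, 216 and 255 normalized counts in siELOVL2, 247, 304 and 273 in siELOVL5, 210.2, 218 and 203 in double-knockdown and 335, 333 and 323 in control libraries. All siRNA libraries lay below all control libraries. The log2 fold change was -0.47 for siELOVL2 (SE 0.10, limma adjusted p = 0.0325) and -0.65 for the double knockdown (SE 0.10, adjusted p = 0.00303), and was -0.27 for siELOVL5 (SE 0.10, adjusted p = 0.411). It was 1 of 10 tested genes called in each of these comparisons, while siELOVL5 had 0 called and 1 at an unadjusted p under 0.05 in limma, and list medians were -0.24, -0.21 and 0.07 for siELOVL2, siELOVL5 and the double knockdown. The siELOVL2 call was lost without any 1 of the 6 siELOVL2 and control libraries (adjusted p 0.0729 to 0.158) or without double-knockdown replicate 1 or 2 (0.0511 and 0.0553). The double-knockdown call was never lost in this way.

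Among regulators of kidney development, led by PAX8, 1 of 16 tested genes was called in the double knockdown and 0 under siELOVL2 or siELOVL5 alone, where 2 each had an unadjusted p under 0.05 in limma. SALL1, a zinc-finger factor of kidney progenitors, fell in the double knockdown, with 393, 476 and 517 normalized counts against 702, 697 and 719 in control libraries (log2 fold change -0.62, SE 0.13, limma adjusted p = 0.0210). It had 420, 514 and 542 in siELOVL2 libraries, also below all controls (-0.53, adjusted p = 0.0762), and 626, 707 and 511 in siELOVL5 libraries, overlapping control (-0.21, adjusted p = 0.631). Without control replicate 1, 2 or 3 or double-knockdown replicate 1 or 2 its adjusted p was 0.0638 to 0.0883. The list medians were 0.11, 0.10 and 0.12. Factors of tubule maturation, led by PPARA at a mean of 657, had 0 of 6 tested genes called by limma, with 1, 0 and 1 at an unadjusted p under 0.05 and medians of 0.13, -0.07 and 0.23.

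Genes of tubule injury and dedifferentiation differed widely in level. Of 13 genes, 8 had a mean of at least 100 normalized counts, led by vimentin (VIM) at 17340. In contrast, 2 of the 13, PROM1 and LCN2, stayed under 10 in every library. HAVCR1, known as KIM-1 and induced in injured proximal tubule, fell in siELOVL2 and double-knockdown cells, with 415, 429 and 424 in siELOVL2 and 402, 447 and 407 in double-knockdown, against 526, 565 and 595 in control libraries. Its log2 fold change was -0.41 (SE 0.08, limma adjusted p = 0.0309) for siELOVL2 and -0.42 (SE 0.08, adjusted p = 0.0137) for the double knockdown. In siELOVL5 libraries it had 539, 585 and 496, overlapping control (-0.06, adjusted p = 0.864). VCAM1, an adhesion molecule of failed tubule repair, fell in siELOVL2 cells, with 1182, 1115 and 1034 against 1558, 1625 and 1568 in control libraries (log2 fold change -0.51, SE 0.09, limma adjusted p = 0.0130). VCAM1 had 2067, 1826 and 2046 in siELOVL5 libraries, all above control (0.32, SE 0.09, adjusted p = 0.260), and 1522, 1342 and 1227 in double-knockdown libraries, all below control (-0.22, SE 0.09, adjusted p = 0.188). Set against each other, siELOVL5 was higher than siELOVL2 (0.83, SE 0.09, limma adjusted p = 2.91e-04).

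Of 13 tested injury genes, 2 were called for siELOVL2 and 1 for the double knockdown, all lower, while siELOVL5 had 0 called and 3 at an unadjusted p under 0.05 in limma. The medians were 0.18, -0.06 and 0.06. The siELOVL2 call of HAVCR1 was lost without any 1 of the 6 siELOVL2 and control libraries (adjusted p 0.0716 to 0.139), and its double-knockdown call without control replicate 2 or 3 or double-knockdown replicate 1 (0.0588 to 0.0645). The VCAM1 call depended on control replicates 1 and 2 and on siELOVL2 replicates 2 and 3, and leaving out any 1 of these ended it (0.0632 to 0.0826).

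Within the cadherins and catenins, led by CTNNA1 at a mean of 4214, CDH2 varied little within groups. CDH2, N-cadherin, which is the classical cadherin of proximal tubule cells, had 1673, 1809.5 and 1718 normalized counts in siELOVL2 and 1669, 1700.4 and 1726 in double-knockdown, against 2877, 3026 and 2749 in control libraries. In siELOVL5 libraries it had 3293, 3309 and 2825, overlapping control. The log2 fold change was -0.73 for siELOVL2 (SE 0.08, limma adjusted p = 4.19e-04) and -0.76 for the double knockdown (SE 0.08, adjusted p = 1.77e-04), and no omitted library ended either call.

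JUP, plakoglobin, a catenin of desmosomes and adherens junctions, rose in the double knockdown, with 373, 311 and 259.7 normalized counts against 236, 163 and 185 in control libraries (log2 fold change 0.69, SE 0.17, limma adjusted p = 0.0362). It had 324, 286 and 233 in siELOVL2 (0.53, adjusted p = 0.159) and 171, 192 and 204 in siELOVL5 libraries (-0.03, adjusted p = 0.975), both overlapping control. That call was lost without control replicate 2 (adjusted p = 0.154) or 3 (0.0985), double-knockdown replicate 1 (0.137) or 2 (0.105), siELOVL2 replicate 2 (0.0600) or siELOVL5 replicate 2 (0.0514). Of 12 tested genes of the list, 1 was lower for siELOVL2, and 1 was lower and 1 higher for the double knockdown, while siELOVL5 had 0 called and 0 at an unadjusted p under 0.05 in limma. The list medians were 0.08, -0.04 and 0.04.

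**Figure D4:**
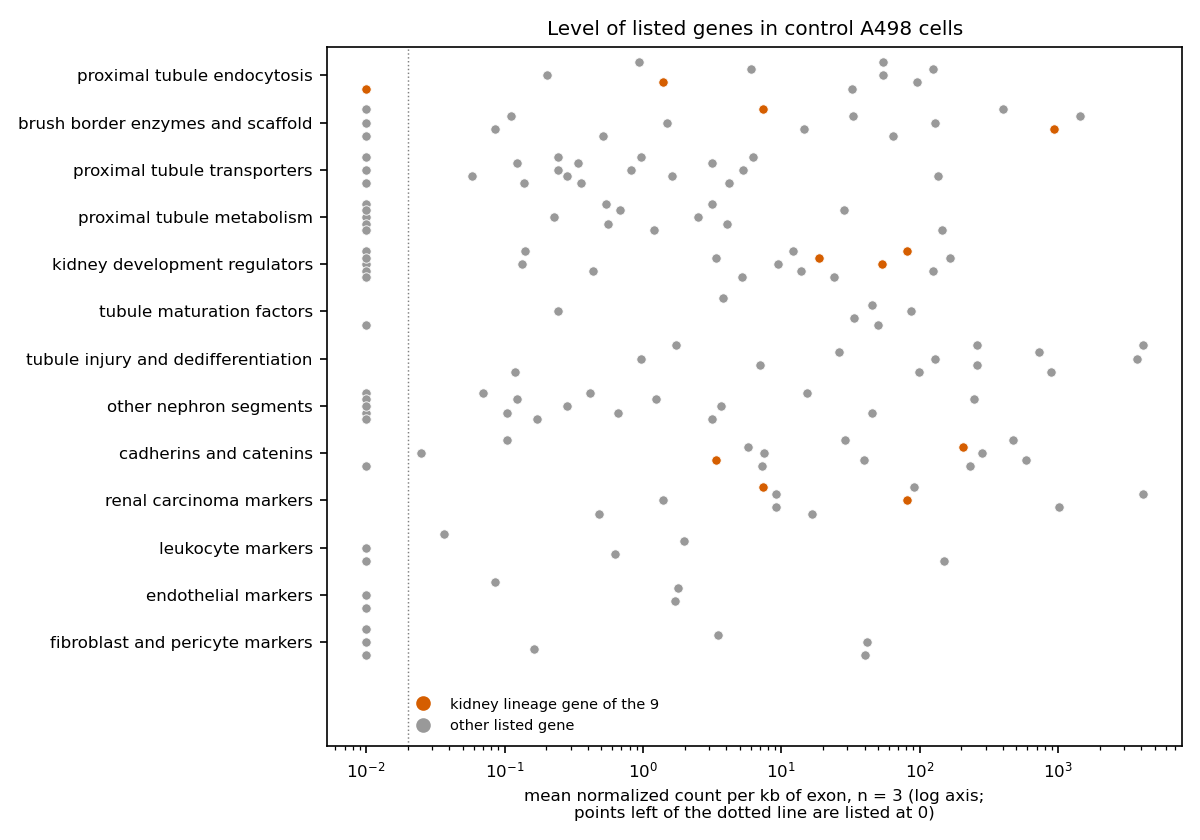
Mean normalized count per kb of exon in control cells (horizontal log axis, n = 3) for the genes of 13 lists, each point 1 gene, with the 9 kidney lineage genes in orange and points left of the dotted line listed at 0. Transporters and metabolic genes lie mostly under 10 per kb, and ANPEP (936) is the highest orange point. Injury genes run from low levels to the top of the range.

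Markers of other nephron segments were mostly scarce, with 14 of 20 under 10 normalized counts in every library and 5 of these at 0. A mean of at least 100 was reached by 2, SYNPO and PODXL. The highest was SYNPO at a mean of 2298, an actin-binding protein of podocytes that is also made in other cells, and limma called 0 of 12 tested genes, with 0, 0 and 1 at an unadjusted p under 0.05 and medians of -0.22, -0.13 and -0.14. The 10 renal carcinoma markers, which include PAX8, MME and VIM, had 0 called by limma, with 1, 0 and 2 at an unadjusted p under 0.05 and medians of -0.13, -0.02 and -0.21.

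Markers of cells outside the tubule were low apart from a few genes. Endothelial markers summed to 17.8 to 33.7 normalized counts in siELOVL2, 17 to 23.2 in siELOVL5, 16.9 to 21.7 in double-knockdown and 5.83 to 22.2 in control libraries, led by TEK at a mean of 12.9. Leukocyte markers summed to 299.9 to 332 in siELOVL2, 299 to 325 in siELOVL5, 296 to 455 in double-knockdown and 318 to 364 in control libraries. Nearly all of that sum was CD68 at a mean of 324, a lysosomal protein also made outside leukocytes, and the other 5 stayed under 10 everywhere. Fibroblast and pericyte markers summed to 527 to 628 in siELOVL2, 631 to 705 in siELOVL5, 525 to 613 in double-knockdown and 604 to 668 in control libraries, led by COL1A1 at a mean of 344. Limma called 0 of the 4 endothelial, 4 leukocyte and 5 fibroblast genes tested, with 2, 0 and 2 at an unadjusted p under 0.05 for siELOVL2, 0, 1 and 0 for siELOVL5 and 0, 0 and 2 for the double knockdown. The T cell gene CD3E and the fibroblast gene LUM were listed at 0 in all libraries, and PTPRC, CDH5 and COL1A2 stayed at or below 2.83, 2.08 and 0.833. Their part in any result above was not tested.

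Of the kidney lineage genes, PAX8, PAX2, LHX1 and CDH6 were measured well above 10 normalized counts in all 12 libraries. Of the proximal tubule genes, ANPEP was abundant and MME was measured at a lower level. With no normal kidney or other cells measured, these levels alone do not establish a lineage or identity. CUBN, CDH16 and most transporters and metabolic enzymes of the mature segment were low, and LRP2 was at or near 0.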

How the data were processed

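The deposited signal table has 57773 genes as rows and 12 libraries of A498 cells as columns (paired-end reads of 36 bases, per the labels). For aligner, counting tool, annotation and genome build, the sources used here give no name. The values show quantile normalization by the authors: all 12 columns hold the same set of values, each a multiple of 1 over 12 (tolerance 1e-06). Depth and low read numbers were recovered from the order of tied values. Tested on simulated data for 57773 genes, this returned 100% of counts up to 60 and depths of 0.982 to 1.018 times the true ones. The simulated ties were set in table order, the rule that the recovery assumes. Whether the authors' ties follow that rule was therefore not tested. Higher counts could not be recovered, so no count test was run.

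Tests used limma 3.58.1 (R 4.3.3) on log2(value + 1), with a variance trend and all 4 groups in 1 fit (8 residual degrees of freedom). Genes at 1 or more in at least 3 libraries were tested, 2-sided, with Benjamini-Hochberg adjustment within each comparison. Fold changes of low genes are understated on this scale. In simulated data for siELOVL2 against control (19058 genes) the fit called 24%, 96% and 100% of genes raised 1.5-, 2- and 3-fold. It called 88% of those at 0.5-fold, and 7 of its 161 calls were false. The simulated spread was smaller than that of CDH6, CDH16 and MME, and no scarce genes were changed.

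The 9 genes were always named. From the 13 lists, up to 3 called genes per knockdown with the smallest adjusted p and the gene with the highest mean were named. The genes and lists were chosen with earlier results of these data known. Alternatives were other pseudocounts (0.5 and 5), filters (none, or 10 in 3 libraries), no trend, library weights, 2 groups alone, scaling by a trimmed mean of log ratios, a replicate block and leaving out each library. Exon lengths were taken from GENCODE 29. Some genes of the lists are not reported here.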

Additional observations from a re-analysis of the deposited data

How the results depend on the processing

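The count of kidney lineage genes called was 0 of 8 in each comparison and stayed 0 under every pseudocount, filter, scaling and trend setting, in fits of 2 groups alone and without any single library (0 to 0). Each pairing of a gene with a comparison (56 in all) was followed through 21 other settings, which gave 1168 values. Of these, 1092 kept direction and call, 71 changed sign while uncalled and 5 gained a call. Library weights called 1 gene in the double knockdown against control (CDH6, log2 fold change -2.18, adjusted p = 0.0418) and 1 in siELOVL5 against siELOVL2 (CUBN, -0.99, adjusted p = 0.0328). A replicate block called 1 gene, CDH6, in siELOVL2 against control (-1.34, adjusted p = 0.0114), in the double knockdown against control (-1.81, adjusted p = 0.00110) and in the double knockdown against siELOVL5 (-1.11, adjusted p = 0.0212). Deviations of same-numbered libraries correlated at -0.00123 to 0.212 (median 0.0999, 18 pairs), against -0.215 to 0.0644 (median -0.0377) for the other 36 pairs. Libraries numbered 1 and those numbered 3 thus deviated together, though weakly (0.0768 to 0.212). Those numbered 2 hardly did (-0.00123 to 0.0317), and the cause was not tested. Deviations from a mean of 3 libraries sum to 0, so the same-numbered and other pairs are not independent. The labels state no block, so the main fit has none, and its p values leave this shared deviation out. The block raised all calls to 861 from 254 (siELOVL2), to 99 from 26 (siELOVL5) and to 1866 from 825 (double knockdown against control), to 1317 from 562 (siELOVL5 against siELOVL2) and to 1368 from 516 (double knockdown against siELOVL5). Library weights gave 1569, 145, 2241, 1643 and 1251 in that order, with 27 against 11 for the double knockdown against siELOVL2. No trend gave 101, 413, 213 and 200 calls for the 4 of these other than siELOVL5 against control, 21 for the double knockdown against siELOVL2 and 9 against 0 for the interaction. Groups fitted alone gave 412 for siELOVL2, 1 for siELOVL5, 49 for siELOVL5 against siELOVL2, 1 for the double knockdown against siELOVL2 and 21 against siELOVL5. Leaving out 1 library gave 63 to 829, 9 to 39, 325 to 1775, 165 to 707, 2 to 16, 154 to 791 and 0 to 0 calls in the order siELOVL2, siELOVL5 and double knockdown against control, siELOVL5 and double knockdown against siELOVL2, double knockdown against siELOVL5, and interaction. Without an intensity trend the siELOVL2 calls of HAVCR1 (adjusted p = 0.0966), UGT2B7 (0.0825) and VCAM1 (0.0718) and the double-knockdown calls of SALL1 (0.0710) and JUP (0.0936) were lost, JUP also with groups fitted alone (0.0930). Depth limits LRP2, CDH16 and CUBN, which rest on 3, 153 and 281 reads.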
